A study of Mus musculus with 71 samples.

Results

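The cortex of wild type (WT) mice that had undergone a crush of the sciatic nerve was compared with the cortex of naive WT mice by counting mature microRNAs (miRNAs) in small RNA libraries. The comparison was defined by its groups, 6 crush and 6 naive WT cortex libraries, and so took 12 of the 71 libraries of the series. All mice were male. In the crush group the right sciatic nerve was crushed for 1 minute under isoflurane at 12 weeks of age, and the left cortex was taken 12 weeks after the injury. The naive group gave left cortex with the same time label, and no sham operation or strain is named in the labels. Each library carries the number of another animal, and libraries are named below by group and by the biological replicate number (biol rep) of the labels. For comparison there were 12 left cortex libraries of DYT1KI mice (6 crush, 6 naive), a knock-in model of dystonia with a mutated torsinA, and WT libraries of left striatum (6 crush, 6 naive) and right cerebellum (5 crush, 6 naive) with the same injury and time.

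MiRNAs are short RNAs that are cut from a hairpin precursor by Drosha and Dicer, and either arm of the hairpin, 5p or 3p, can be loaded into an Argonaute protein. The seed, bases 2 to 8, pairs with target mRNAs and lowers their translation or stability. The sciatic nerve carries motor and sensory fibres of the hindlimb, and the left cortex serves the right side of the body. In cortical neurons several miRNAs, among them miR-132 and miR-212, are induced by neuronal activity.

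The sequences of the miRNAs that the results turn on are printed 5′ to 3′ with the seed in capitals. They were chosen after the values were seen, and come from RefSeq, GRCm38.p6. The leading miRNAs that fell, together with the activity-induced miR-212-3p, were:
miR-434-3p: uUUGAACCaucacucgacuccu
miR-434-5p: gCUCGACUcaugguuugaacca
miR-30c-5p: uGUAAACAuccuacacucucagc
miR-345-5p: gCUGACCCcuaguccagugcuu
miR-29c-5p: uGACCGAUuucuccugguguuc
miR-212-3p: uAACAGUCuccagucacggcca

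Leading miRNAs that rose are shown for contrast with the set above:
miR-1943-5p: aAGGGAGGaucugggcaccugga
miR-674-5p: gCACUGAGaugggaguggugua
miR-1224-5p: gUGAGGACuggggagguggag
miR-129-5p: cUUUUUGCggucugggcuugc

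MiRNAs with 1 seed but different bodies, and arms that parted from their partner, are shown because their values differed:
miR-30a-5p: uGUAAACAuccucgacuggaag
miR-30e-5p: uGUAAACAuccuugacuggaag
miR-384-5p: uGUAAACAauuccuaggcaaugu
miR-15a-5p: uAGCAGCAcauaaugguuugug
miR-16-5p: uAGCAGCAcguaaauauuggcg
miR-129-2-3p: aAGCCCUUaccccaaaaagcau
miR-551b-5p: gAAAUCAAgcuugggugagaccu
miR-551b-3p: gCGACCCAuacuugguuucag

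Both arms of miR-434 lie on the plus strand of chromosome 12, the 5p arm at chr12:109594528-109594549 and the 3p arm at chr12:109594565-109594586, opposite to an exon of Rtl1. miR-345-5p lies at chr12:108836989-108837010 in an intron of Slc25a47, on the same strand. miR-30c-5p has a copy at chr4:120769584-120769606 in an intron of Nfyc and another at chr1:23291714-23291736 in an exon of the lincRNA Gm27028, and the counts do not tell the copies apart. miR-1224-5p lies at chr16:20604452-20604472 in an intron of Vwa5b2, and miR-1943-5p at chr15:79375271-79375293 in an intron of Tmem184b.

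Total counts ran from 5405172 to 9179391 in the crush libraries and from 5182284 to 8871108 in the naive libraries, with 618 to 655 and 615 to 657 miRNAs detected. A count of 3 stands for at most 0.579 CPM (counts per 1000000 counted) in any of the 12, so lower levels were not detectable in every library. That floor covers counting error only. The neuronal markers miR-124-3p, miR-9-5p, miR-128-3p, miR-138-5p and miR-218-5p together held 151775 to 177114 CPM in crush and 147054 to 175390 CPM in naive libraries. As markers of neurons they do not tell cortex from striatum or cerebellum.

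Before the comparison, a split among the libraries has to be stated. miR-24-3p, an abundant miRNA of most tissues, was counted 98458 times in 1 crush library (biol rep 3) and 94332 to 108875 times in 3 naive libraries (biol rep 1 to 3), and 0 times in the other 8. In DYT1KI cortex 1 of 6 crush (biol rep 2) and 3 of 6 naive libraries (biol rep 1 to 3) held it. In cerebellum 1 of 5 WT crush and 1 of 6 DYT1KI naive libraries held it, and in striatum none did. The first principal component of the 12 libraries, computed without miR-24-3p, held 49.9% of the variance and set naive biol rep 1 to 3, at 12.1 to 12.8, apart from the other 9, at -10.2 to 5.05. Crush biol rep 3, which also held miR-24-3p, was at -1.57. The cortex libraries that held miR-24-3p were thus mostly naive and all of biol rep 1 to 3. What else sets them apart was not tested. Beside the fold changes of called miRNAs from all 12 libraries stand those from the 8 libraries with 0 miR-24-3p, none of which passed an adjusted p of 0.05.

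The crush and naive cortex differed in many miRNAs when these 12 libraries were fitted alone. Of 480 miRNAs tested, 134 (27.9%) passed an adjusted p of 0.05 in edgeR's quasi-likelihood test with Benjamini-Hochberg adjustment. Of these, 41 (8.54%) rose and 93 (19.4%) fell. When the 4 cortex groups of WT and DYT1KI mice were fitted together, which shares the estimate of the spread, the same contrast called 0 of 530 (0%). There the smallest adjusted p was 0.0598, and 168 miRNAs had an unadjusted p under 0.05. Both counts were known when the fit of 12 libraries was chosen as the main one. The median size of the 134 changes was 0.83 log2 units in the fit of 12 and 0.85 in the fit of 4 groups, while their median standard error was 0.22 and 0.30.

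The calls also depended on the libraries that held miR-24-3p. With the presence of miR-24-3p as a term, 89 of 480 (18.5%) were called, 23 higher (4.79%) and 66 lower (13.8%), and 87 of these were among the 134. Within the 5 crush and 3 naive libraries with 0 miR-24-3p, 0 of 502 (0%) were called by edgeR. The smallest adjusted p was 0.103, and 87 miRNAs had an unadjusted p under 0.05. All 134 kept their sign there, with a median size of 0.50. These libraries are part of those that selected the 134, so the agreement in sign was largely fixed in advance. Biol rep 4 to 6 alone, all without miR-24-3p, gave 47 calls of 483 (5 higher, 42 lower), and biol rep 1 to 3 alone gave 162 of 489 (67 higher, 95 lower). Both alternatives that use the miR-24-3p counts were chosen after the data were seen.

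**Figure D1:**
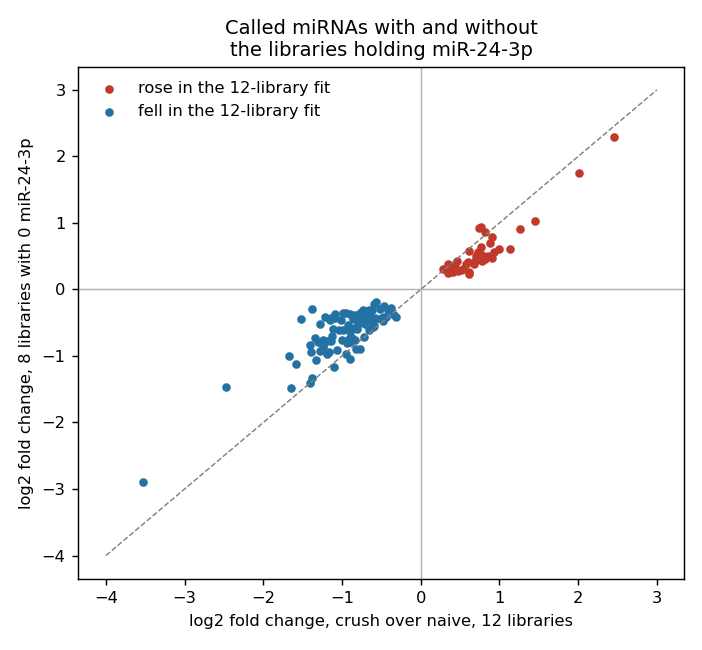
Log2 fold change (crush over naive) of the 134 called miRNAs in all 12 libraries (x axis) against that in the 8 libraries with 0 miR-24-3p (y axis); each point is a miRNA and the dashed line marks equal values. All 134 lie on the same side of 0 on both axes, and most lie nearer to 0 on the y axis. The 8 libraries are among the 12 that selected these miRNAs, so the shared side was largely fixed in advance.

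Leaving out single libraries moved the share called between 16.3% and 32.2% of those tested. The count was 79 without naive biol rep 2, 80 without naive biol rep 1 and 88 without crush biol rep 4. In all 12 such fits 73 of the 134 were called. The values of the 2 groups did not overlap for 43 of the 480 miRNAs (8.96%), and 41 of these were calls, 15 that rose and 26 that fell. The median change was 0.69 in the 41 that rose and -0.90 in the 93 that fell, and 5 and 35 of them passed 1 log2 unit. With upper-quartile scaling the median of all miRNAs was 0.14 against 0.05 with TMM scaling, and the split was 76 higher and 83 lower. The 134 kept their sign under every scaling tried.

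Both arms of miR-434, from the maternally expressed cluster antisense to the imprinted gene Rtl1, led the falls. miR-434-3p had 140, 165 and 195 CPM (lowest, median, highest) in crush libraries, against 242, 439 and 507 CPM in naive libraries. Every crush library was below every naive library, and the 3 naive libraries with miR-24-3p were the highest. The log2 change was -1.28 ± 0.19 (SE, edgeR adjusted p = 0.00291), and -0.92 ± 0.19 in the 8 libraries with 0 miR-24-3p. miR-434-5p ran from 18.6 to 30.99 CPM in crush and from 34.0 to 70.0 CPM in naive libraries, also without overlap, with a change of -1.17 ± 0.19 (edgeR adjusted p = 0.00291), and -0.94 ± 0.20 in the libraries with 0 miR-24-3p.

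The imprinted Dlk1-Dio3 region of chromosome 12 holds these and many other brain miRNAs. Of the 10 tested members of the Rtl1-antisense cluster, 3 fell and 0 rose, beside 19.4% and 8.54% of all 480: both arms of miR-434 and miR-136-5p, whose level was 33.7, 52.3 and 90.0 CPM in crush against 59.4, 131 and 290 CPM in naive libraries. The groups overlapped for miR-136-5p, at -1.35 ± 0.37 (edgeR adjusted p = 0.0182). Its call was lost with the miR-24-3p term (edgeR adjusted p = 0.0513), and it was at -0.73 ± 0.30 in the libraries with 0 miR-24-3p. The neighbouring Mirg cluster had 41 tested members, of which 15 fell and 0 rose, beside the same shares of all, with a median of -0.27 against 0.05 for all 480. With the miR-24-3p term 8 of the 41 and 2 of the 10 fell, beside 13.8% of all. miR-382-3p showed no overlap, with 8.55 to 11.5 CPM in crush and 12.3 to 19.3 CPM in naive libraries (-0.65 ± 0.15, edgeR adjusted p = 0.0101), while miR-409-5p (-0.49 ± 0.11), miR-329-3p (-1.12 ± 0.27) and miR-329-5p (-1.06 ± 0.26) fell with overlapping groups. Among the libraries with 0 miR-24-3p, miR-382-3p was at -0.47 ± 0.18, miR-409-5p at -0.43 ± 0.15, miR-329-3p at -0.60 ± 0.25 and miR-329-5p at -0.91 ± 0.27.

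Of the 5 tested members of the miR-30 family, 2 fell and 3 did not pass, beside 19.4% of all 480 that fell. miR-30c-5p had 333, 434 and 620 CPM in crush against 640, 1275 and 1720 CPM in naive libraries. The groups did not overlap, but the gap between the highest crush and the lowest naive library was narrow. The change was -1.41 ± 0.26 (edgeR adjusted p = 0.00542), and -0.83 ± 0.21 in libraries with 0 miR-24-3p. miR-30b-5p also fell, with 170 to 229 CPM in crush and 274 to 608 CPM in naive libraries (-1.14 ± 0.18, edgeR adjusted p = 0.00291), and was at -0.78 ± 0.16 in the libraries with 0 miR-24-3p. The more abundant miR-30a-5p and miR-30e-5p did not pass, at 0.23 ± 0.13 and 0.24 ± 0.12, with median levels of 9267 and 11125 CPM in crush and 7905 and 9118 CPM in naive libraries. miR-384-5p, which shares the seed but not the body, fell by 0.59 on the log2 scale (SE 0.16, edgeR adjusted p = 0.0182). It was at -0.21 ± 0.14 in the libraries with 0 miR-24-3p, and its call was lost with the miR-24-3p term (edgeR adjusted p = 0.0533). The sequences printed above show that miR-30c differs from miR-30a and miR-30e only after the seed.

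Other leading falls were of low or moderate level. miR-345-5p had 1.43, 2.25 and 3.86 CPM in crush against 4.98, 7.58 and 10.8 CPM in naive libraries, without overlap, at -1.64 ± 0.28 (edgeR adjusted p = 0.00424). The passenger arms miR-29c-5p (-1.19 ± 0.21) and miR-29a-5p (-1.25 ± 0.23) fell. Of the 3 guide arms of the miR-29 family 1 fell: miR-29c-3p, known for targeting collagen mRNAs, at -0.31 ± 0.11 (edgeR adjusted p = 0.0421). The call of miR-29c-3p was lost without any 1 of crush biol rep 1, 2, 4 or 6 or naive biol rep 1, 2, 4 or 5. The remaining leaders were miR-350-3p (-1.33 ± 0.24), let-7g-3p (-1.39 ± 0.26), let-7d-3p (-0.89 ± 0.17), miR-331-3p (-1.58 ± 0.32) and the joint row of miR-129-1-3p and miR-129-2-3p (-1.24 ± 0.24), each with an edgeR adjusted p between 0.00542 and 0.00601. In the libraries with 0 miR-24-3p, let-7d-3p was at -0.57 ± 0.18 and miR-29c-3p at -0.42 ± 0.14. There miR-345-5p, miR-29c-5p, miR-29a-5p, miR-350-3p, let-7g-3p, miR-331-3p and the joint miR-129 row were between -1.47 and -0.85. miR-29c-3p also lost its call with the miR-24-3p term (edgeR adjusted p = 0.0723).

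**Figure D2:**
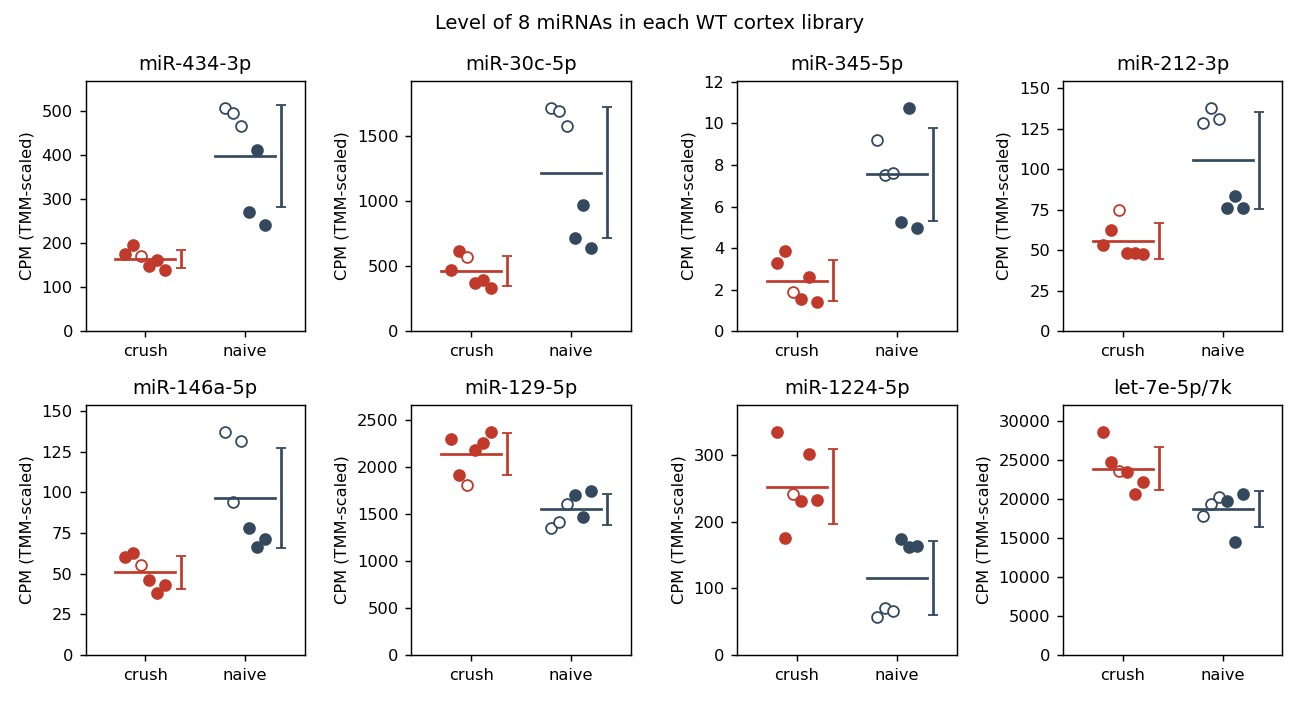
Level of 8 miRNAs (CPM after TMM scaling, linear axis from 0) in each crush (left) and naive (right) WT cortex library; lines are means, bars are SD (n = 6 each) and open points mark libraries that held miR-24-3p. In the panels of miR-434-3p, miR-30c-5p and miR-212-3p the 3 open naive points are the highest of their panel.

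Neuronal-activity-regulated miRNAs included 9 tested members, of which 4 fell and 0 rose, beside 19.4% and 8.54% of all 480. The 4 were both arms of miR-212, miR-132-3p and miR-329-3p. The other 5 did not pass, and the highest of them was miR-485-5p at 0.54 (edgeR adjusted p = 0.0721). The list had a median of -0.23 against 0.05 for all. With the miR-24-3p term 3 members fell, beside 13.8% of all. miR-212-3p, induced through CREB, had 47.5, 50.8 and 74.6 CPM in crush against 75.8, 106 and 137.9 CPM in naive libraries. The groups did not overlap, though the highest crush library, biol rep 3 with miR-24-3p, was next to the lowest naive one. The change was -0.92 ± 0.19 (edgeR adjusted p = 0.00655), and -0.60 ± 0.15 in libraries with 0 miR-24-3p. miR-212-5p fell by 0.84 on the log2 scale (SE 0.23), with overlap, and was at -0.38 ± 0.21 in the libraries with 0 miR-24-3p. miR-132-3p, from the same transcript and with the same seed as miR-212-3p, had 598 to 1297 CPM in crush and 1073 to 2287 CPM in naive libraries, with overlap, at -0.77 ± 0.26 (edgeR adjusted p = 0.0418). Its call was lost without any 1 of crush biol rep 4, 5 or 6 or naive biol rep 1, 2 or 3, and with the miR-24-3p term (edgeR adjusted p = 0.123), and it was at -0.35 ± 0.26 in the libraries with 0 miR-24-3p.

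Of 11 neuron-enriched miRNAs, 1 rose and 3 fell, beside 8.54% and 19.4% of all 480. miR-124-3p and miR-9-5p, which are abundant in neurons, did not pass, at 0.16 ± 0.15 and -0.03 ± 0.08 (edgeR adjusted p = 0.445 and 0.818). miR-218-5p had 666, 720 and 969 CPM in crush against 923, 1165 and 1657 CPM in naive libraries, with slight overlap, at -0.68 ± 0.16. miR-153-3p was at -0.71 ± 0.19. They were at -0.41 ± 0.14 and -0.47 ± 0.14 in the libraries with 0 miR-24-3p. miR-129-5p rose, with 1804, 2216 and 2375 CPM in crush against 1350, 1535 and 1746 CPM in naive libraries, without overlap (0.47 ± 0.10, edgeR adjusted p = 0.00937), and was at 0.42 ± 0.13 in the libraries with 0 miR-24-3p.

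The other leading rises had mostly little known function in brain. miR-1943-5p had 3.23, 3.85 and 4.50 CPM in crush against 0.486, 1.45 and 2.23 CPM in naive libraries. The groups did not overlap, and the lowest naive value stands on 4 counts. The change was 1.46 ± 0.29 (edgeR adjusted p = 0.00601), and 1.02 ± 0.25 in libraries with 0 miR-24-3p. miR-1224-5p had 176, 237 and 335 CPM in crush against 57.5, 116 and 174 CPM in naive libraries. Its highest naive library lay just below its lowest crush library, and the 3 naive libraries with miR-24-3p were the lowest (1.13 ± 0.29, against 0.61 ± 0.19 in libraries with 0 miR-24-3p). The rises of abundant miRNAs were small: miR-674-5p by 0.41 ± 0.10 and miR-151-5p by 0.37 ± 0.09, both without overlap. miR-5121, miR-551b-5p, miR-3059-3p, miR-667-5p, miR-6994-5p, miR-7066-5p and miR-5129-5p rose by 0.57 to 0.90. The calls of miR-6994-5p (without crush biol rep 6), miR-7066-5p (without crush biol rep 4, naive biol rep 2 or 5) and miR-5129-5p (without naive biol rep 1 or 2) were lost without 1 library, and that of miR-6994-5p also with the miR-24-3p term (edgeR adjusted p = 0.0533). These 7 were, in the libraries with 0 miR-24-3p, between 0.38 and 0.94, the lowest being miR-7066-5p (0.38 ± 0.19). miR-674-5p was there at 0.33 ± 0.14 and miR-151-5p at 0.27 ± 0.12.

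Of 9 miRNAs of microglia and leukocytes, 4 fell and 0 rose, beside 19.4% and 8.54% of all 480. With the miR-24-3p term 2 fell, beside 13.8% of all. miR-146a-5p, an NF-kB-induced brake on Toll-like receptor signalling, had 37.8, 50.8 and 62.9 CPM in crush against 66.2, 86.4 and 137.5 CPM in naive libraries, without overlap. Its change was -0.93 ± 0.21 (edgeR adjusted p = 0.00904), and -0.53 ± 0.19 in libraries with 0 miR-24-3p. miR-150-5p of lymphocytes had 65.2 to 106 CPM in crush and 115 to 200 CPM in naive libraries, also without overlap (-0.81 ± 0.17, edgeR adjusted p = 0.00644). miR-146b-5p (-0.46 ± 0.13) and miR-223-3p of myeloid cells (-0.56 ± 0.18) fell with overlap, and miR-223-3p lost its call without any 1 of crush biol rep 3, 4 or 6 or naive biol rep 1, 2 or 3. In the libraries with 0 miR-24-3p, miR-150-5p was at -0.60 ± 0.19, miR-146b-5p at -0.25 ± 0.14 and miR-223-3p at -0.18 ± 0.19, and miR-146b-5p and miR-223-3p lost their calls with the miR-24-3p term (edgeR adjusted p = 0.0557 and 0.114). miR-155-5p, a pro-inflammatory miRNA, was at 0.45 ± 0.18 (edgeR adjusted p = 0.0744), and miR-21a-5p, which is induced in many injuries, at -0.08 ± 0.11 (edgeR adjusted p = 0.608). The 5 marker miRNAs of these cells summed to 249 to 364 CPM in crush and 368 to 648 CPM in naive libraries, and none was at 0 in all 12. The sum includes both arms of miR-142a, which did not pass. miR-142a-3p was at -1.04 and miR-142a-5p at -0.03 (edgeR adjusted p = 0.0557 and 0.890). In the libraries with 0 miR-24-3p they were at -0.43 and -0.09. In bulk tissue, fewer cells of a type and less RNA per cell cannot be told apart.

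Markers of other cells moved with the groups in part. miR-219a-5p of oligodendrocytes was at 0 in 4 crush libraries and at most 1.66 CPM in the others, against 0.656 to 7.31 CPM in naive libraries, with overlap (edgeR adjusted p = 0.00986). Its fitted change of -3.52 rests on these zeros and depends on the prior count. It was the 1 call of the 4 oligodendrocyte miRNAs, which together held 1995 to 2641 CPM in crush and 2092 to 3532 CPM in naive libraries. Most of that sum was miR-338-3p. The 3 uncalled members ran from -0.61 to 0.10. Over all 480 miRNAs 8.54% rose and 19.4% fell. miR-451a of red blood cells had 0.877 to 6.76 CPM in crush and 1.84 to 37.9 CPM in naive libraries (-2.47 ± 0.69, edgeR adjusted p = 0.0195), and lost its call without naive biol rep 2 (-1.78, edgeR adjusted p = 0.0523). The 2 other erythroid miRNAs tested did not pass, miR-144-3p at -1.18 and miR-486a-5p/486b-5p at 0.12. The erythroid sum was 41.2 to 88.5 CPM in crush and 40.6 to 179 CPM in naive libraries. Of the endothelial and mural list of 5, miR-145a-5p of smooth muscle fell by 0.93 (SE 0.23), and miR-126a-3p of endothelium rose by 0.32 ± 0.11, a call kept only without crush biol rep 1 or without naive biol rep 6, and 0.21 without naive biol rep 5. The endothelial and mural sum was 27708 to 41469 CPM in crush and 24839 to 34428 CPM in naive libraries. In the libraries with 0 miR-24-3p, miR-219a-5p was at -2.90 ± 1.08, likewise a fitted value that rests on zeros, miR-451a at -1.46 ± 0.85, miR-145a-5p at -0.80 ± 0.26 and miR-126a-3p at 0.31 ± 0.17, and the calls of miR-451a and miR-126a-3p were lost with the miR-24-3p term (edgeR adjusted p = 0.146 and 0.0795). The part of cell makeup in the changes above was not tested.

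miR-1298-5p and miR-448-3p, hosted by the serotonin receptor gene Htr2c, rose by 2.45 ± 0.83 and 2.01 ± 0.70 (edgeR adjusted p = 0.0426 and 0.0456). Both rises were carried by crush biol rep 2, with 408 CPM of miR-1298-5p and 54.6 CPM of miR-448-3p, against medians of 22.3 and 5.51 CPM over the crush libraries and 14.98 and 3.15 CPM over the naive ones. Without it they were 0.60 and 0.56 (edgeR adjusted p = 0.256 and 0.206). Each also lost its call without any 1 of crush biol rep 3 or naive biol rep 1, 2, 3, 5 or 6, and miR-448-3p without crush biol rep 4 or 6. Their calls were lost with the miR-24-3p term (edgeR adjusted p = 0.174 and 0.189), and they were at 2.29 ± 1.52 and 1.76 ± 1.13 in the libraries with 0 miR-24-3p. The same library had the highest sum of choroid plexus and ependyma markers, 915 CPM, against at most 517 CPM in naive libraries. No member of the choroid plexus or hindbrain lists passed, 5 tested in each. Choroid plexus values had both signs, from -0.65 ± 0.37 for miR-204-5p and -0.09 ± 0.30 for miR-34b-5p to 0.53 ± 0.27 for miR-34c-5p and 0.56 ± 0.26 for miR-204-3p. Hindbrain values ran from 0.13 ± 0.20 for miR-10b-5p to 0.79 ± 0.43 for miR-182-5p, with miR-206-3p at 0.36 ± 0.17. The hindbrain and cerebellum sum was 43.9 to 81.0 CPM in crush and 34.2 to 51.4 CPM in naive libraries.

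Among the peripheral nerve injury miRNAs, 4 of 13 fell and 0 rose, beside 19.4% and 8.54% of all 480, and 2 fell with the miR-24-3p term, near the 13.8% of all. The 4 were miR-30b-5p, miR-146a-5p, miR-132-3p and miR-222-3p. miR-222-3p, which shares its seed with miR-221-3p, had 32.5, 56.9 and 95.5 CPM in crush against 65.2, 148 and 232 CPM in naive libraries. The groups overlapped (-1.28 ± 0.37, edgeR adjusted p = 0.0221), the call was lost without naive biol rep 1 or 2 and with the miR-24-3p term, and the change was -0.53 ± 0.35 in libraries with 0 miR-24-3p. miR-221-3p was at -0.17 ± 0.10 and did not pass.

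Over all 480 miRNAs 27.9% were called. In the let-7 family, which restrains growth and is abundant in mature neurons, all 9 tested members had values between 0.15 and 0.35, and only the joint row of let-7e-5p and let-7k passed (0.35 ± 0.10, edgeR adjusted p = 0.0252). It had 20607 to 28614 CPM in crush and 14510 to 20605 CPM in naive libraries, and its call was lost without any 1 of crush biol rep 1 to 4 or naive biol rep 1, 2 or 5. Of the miR-125 and miR-99/100 families, miR-125a-5p (-0.49 ± 0.11) and miR-125b-5p (-0.60 ± 0.14) fell and 3 other members did not pass. Of the miR-17-92 family and its paralogs, miR-20b-5p (0.77 ± 0.27) and miR-93-5p (0.54 ± 0.18) rose and miR-19b-3p fell (-1.25 ± 0.35), of 10 tested. In the libraries with 0 miR-24-3p, let-7e-5p/7k was at 0.38 ± 0.16, miR-125a-5p at -0.44 ± 0.15, miR-125b-5p at -0.57 ± 0.17, miR-20b-5p at 0.52 ± 0.27, miR-93-5p at 0.31 ± 0.17 and miR-19b-3p at -0.76 ± 0.38. The calls of miR-20b-5p and miR-93-5p were held in 3 and 4 of the 12 fits that left out a library and were lost without any 1 of crush biol rep 1, 4, 5 or 6 or naive biol rep 1, 2, 3 or 5, and for miR-20b-5p also naive biol rep 4. Both were lost with the miR-24-3p term (edgeR adjusted p = 0.0897 and 0.0566). No member of the miR-181 family (4 tested) passed.

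Of 39 seeds shared by at least 2 tested miRNAs with a sequence, 9 had at least 2 members called in 1 direction only, and 1 had calls in both. Over all 480 miRNAs 27.9% were called, 8.54% as rises and 19.4% as falls. How often miRNAs grouped without regard to seed would match like this was not tested. The seed with calls in both directions is taken first. In that seed, miR-15a-5p fell without overlap, with 532 to 582 CPM in crush against 627 to 886 CPM in naive libraries (-0.47 ± 0.10, edgeR adjusted p = 0.00669). miR-16-5p, which lies with miR-15a in Dleu2 and also in Smc4, rose, with 34603 to 38710 CPM in crush and 19871 to 34926 CPM in naive libraries (0.37 ± 0.12, edgeR adjusted p = 0.0299). Its call was lost without any 1 of crush biol rep 2, 3, 4 or 6 or naive biol rep 1, 2, 3 or 5, and without naive biol rep 5 the change was 0.24. With the miR-24-3p term its call was lost (edgeR adjusted p = 0.0557). In the libraries with 0 miR-24-3p, miR-15a-5p was at -0.41 ± 0.12 and miR-16-5p at 0.31 ± 0.17. miR-148a-3p, miR-148b-3p and miR-152-3p, of 1 seed, all fell, at -1.39 ± 0.46, -0.99 ± 0.28 and -0.76 ± 0.20, calls held in 4, 11 and 12 of the 12 fits that left out a library. They were at -0.30 ± 0.49, -0.61 ± 0.27 and -0.49 ± 0.21 in the libraries with 0 miR-24-3p, and that of miR-148a-3p was lost with the miR-24-3p term (edgeR adjusted p = 0.189). These were named after their values were seen.

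Opposite signs of the 2 arms of a hairpin were common: 79 pairs had them, whether called or not. Of all 480 miRNAs, 27.9% were called, with 8.54% that rose and 19.4% that fell. Where both arms of a hairpin were tested, neither was called in 76 pairs, 1 in 55 and both in 15: 6 fell together, 0 rose together and 9 moved in opposite directions. Among these, miR-129-5p rose while its 3p arm fell, with 33.3% and 9.09% guanine in the arms. miR-551b-5p rose by 0.77 and miR-551b-3p fell by 1.67 on the log2 scale, with 30.4% and 23.8% guanine. miR-30c-5p fell while miR-30c-1-3p (0.62) and miR-30c-2-3p (0.41) rose, with 8.7% guanine in the 5p arm and 36.4% and 31.8% in the 3p arms. Arms of miR-135a, miR-125a, miR-337, miR-664 and miR-667 also parted. In the 9 pairs, 2 of which share miR-30c-5p, the arm with more guanine was the one that rose. These pairs were picked by their opposite calls. Over the 130 pairs with both sequences the arm with more guanine had the higher change in 90, and 4 had equal guanine. The calls of miR-30c-1-3p and miR-30c-2-3p held in 1 and 3 of the 12 fits that left out a library, and that of miR-30c-2-3p was lost with the miR-24-3p term (edgeR adjusted p = 0.0897). Values in the libraries with 0 miR-24-3p were -0.88 for the 3p arm of miR-129, 0.94 and -1.005 for the arms of miR-551b, -0.83 for miR-30c-5p, and 0.26 for both of its 3p arms.

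**Figure D3:**
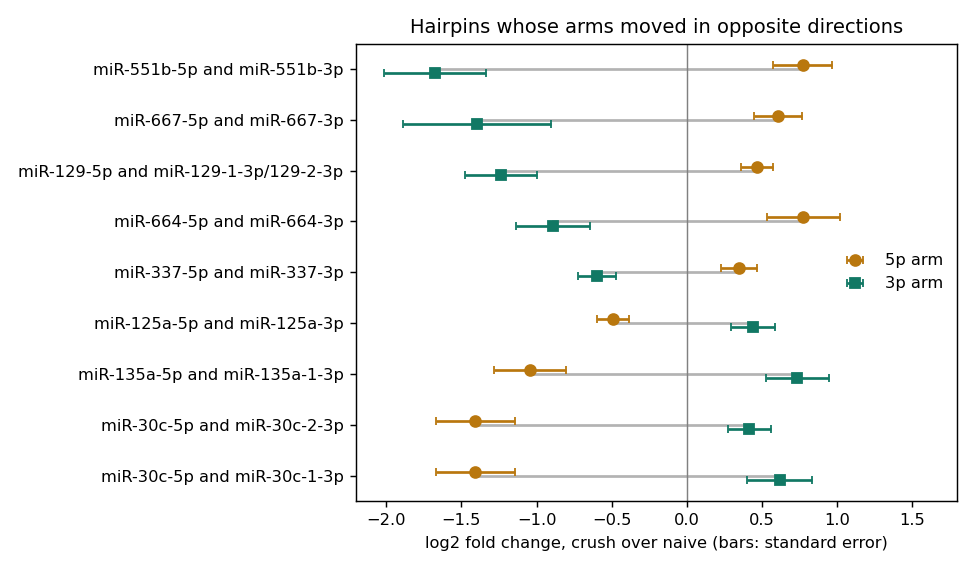
Log2 fold change (crush over naive) of the 5p (circles) and 3p (squares) arms of the 9 pairs of arms called in opposite directions; bars are standard errors and a grey line joins the arms. In 5 pairs the 5p arm lies above 0 and in 4 the 3p arm does.

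The direction went with guanine content over the whole set, a pattern noticed after the values were seen and given as a description. Mature sequences were matched for 418 of the 480 miRNAs. The median guanine content was 40.9% in the 37 that rose, 19.05% in the 86 that fell and 27.3% in all 418. Of 105 miRNAs under 20% guanine, 0 rose and 46 fell, and of 107 at 35% or more, 26 rose and 1 fell. Spearman's rho between guanine content and log2 change was 0.58 over 418 miRNAs, which share the same 12 libraries. It was 0.57 with the miR-24-3p term and 0.53 in the libraries with 0 miR-24-3p (n = 417), and 0.63 in DYT1KI cortex (n = 414), 0.05 in WT striatum (n = 398) and -0.03 in WT cerebellum (n = 393). DYT1KI cortex had the same split in miR-24-3p between its groups. For cytosine content rho was -0.35 in WT cortex, -0.43 in its libraries with 0 miR-24-3p and -0.40 in DYT1KI cortex. It was -0.05 in WT striatum and 0.23 in WT cerebellum. For uracil and adenine rho was -0.26 and -0.04 in WT cortex.

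By library, the median log2 deviation of the guanine-rich miRNAs minus that of the guanine-poor ones was 0.17 to 0.66 in crush libraries and -0.85 to 0.13 in naive libraries. The groups did not overlap. The naive libraries with miR-24-3p were at -0.85 to -0.61 and those without it at -0.29 to 0.13. The cause of this pattern was not tested, and the changes of single miRNAs above move with it.

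**Figure D4:**
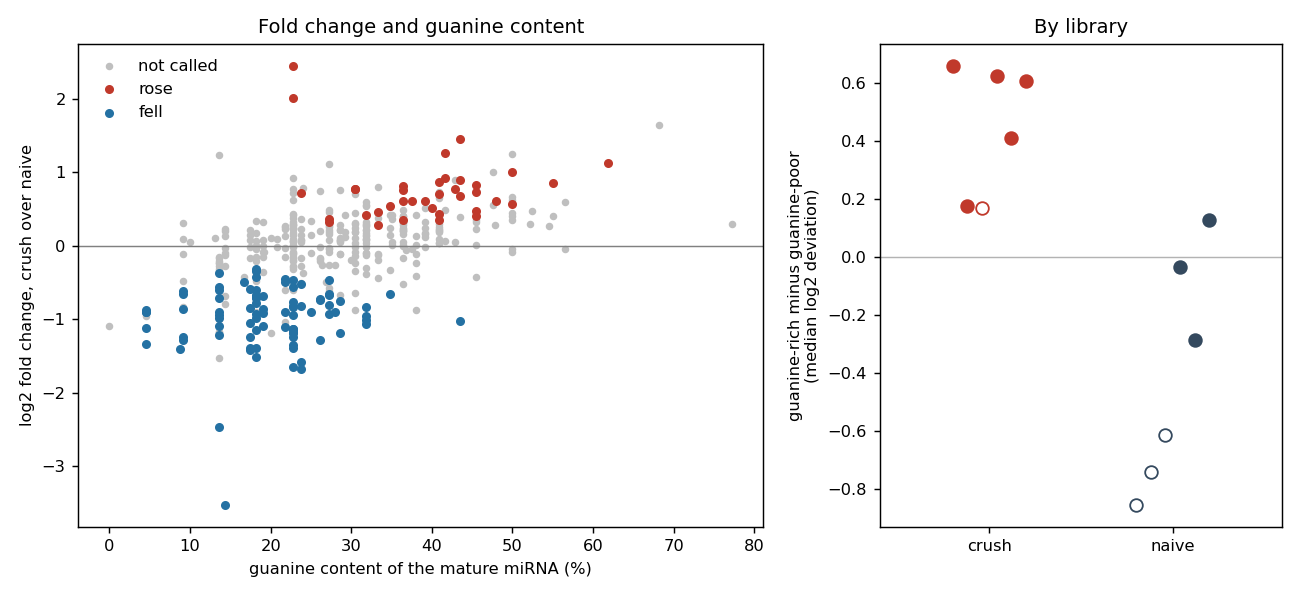
Left, log2 fold change (crush over naive) of each miRNA with a sequence (418 points) against its guanine content in percent, coloured by call; right, median deviation of guanine-rich (at least 35%) minus guanine-poor (under 20%) miRNAs in each crush (left) and naive (right) library, open points holding miR-24-3p. Rises lie mostly at high and falls at low guanine content, and the 6 crush libraries lie above the 6 naive ones.

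In WT striatum and WT cerebellum, crush against naive called 0 of 497 (0%) and 0 of 513 (0%) by edgeR, with 26 and 20 at an unadjusted p under 0.05. The median size of the 134 cortex calls was 0.13 in striatum, where 5 of them were not tested, and 0.15 in cerebellum, where 7 were not, against 0.83 in cortex. The 134 were selected by their cortex values, which favours large sizes there, so these sizes do not compare the tissues. miR-434-3p, for example, was at -1.28 in cortex, -0.38 in striatum and 0.06 in cerebellum. The difference of the crush effect between tissues, tested with limma voom with the animal as a block, called 0 of 598 for cortex minus striatum (126 at an unadjusted p under 0.05, smallest adjusted p 0.0917) and 0 of 598 for cortex minus cerebellum (130, smallest adjusted p 0.139). With the animal as a fixed block the first of these called 20. Within the libraries with 0 miR-24-3p, limma voom called 0 of 616 for cortex minus striatum and for cortex minus cerebellum. There 53 and 14 had an unadjusted p under 0.05, and the smallest adjusted p was 0.553 and 0.959. Nothing is therefore named as particular to cortex.

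In DYT1KI cortex, crush against naive called 0 of 484 (0%) by edgeR, with 75 at an unadjusted p under 0.05, and the 134 WT calls had a median size of 0.46 there. Their selection in WT cortex favours large sizes in WT mice, so this size does not compare the genotypes. DYT1KI cortex had the same split as WT cortex, with miR-24-3p in 1 of 6 crush and 3 of 6 naive libraries. No DYT1KI fold change from the libraries with 0 miR-24-3p is given here. miR-434-3p was at -0.79, miR-30c-5p at -0.68 and miR-1224-5p at 0.75 in DYT1KI cortex. miR-1298-5p, carried by 1 library in WT mice, was at -0.32. The difference of the crush effect between WT and DYT1KI mice called 0 of 530 (0%), where the smallest adjusted p was 0.815 and 20 miRNAs had an unadjusted p under 0.05. Within the cortex libraries with 0 miR-24-3p it called 0 of 538, with 15 at an unadjusted p under 0.05.

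**Figure D5:**
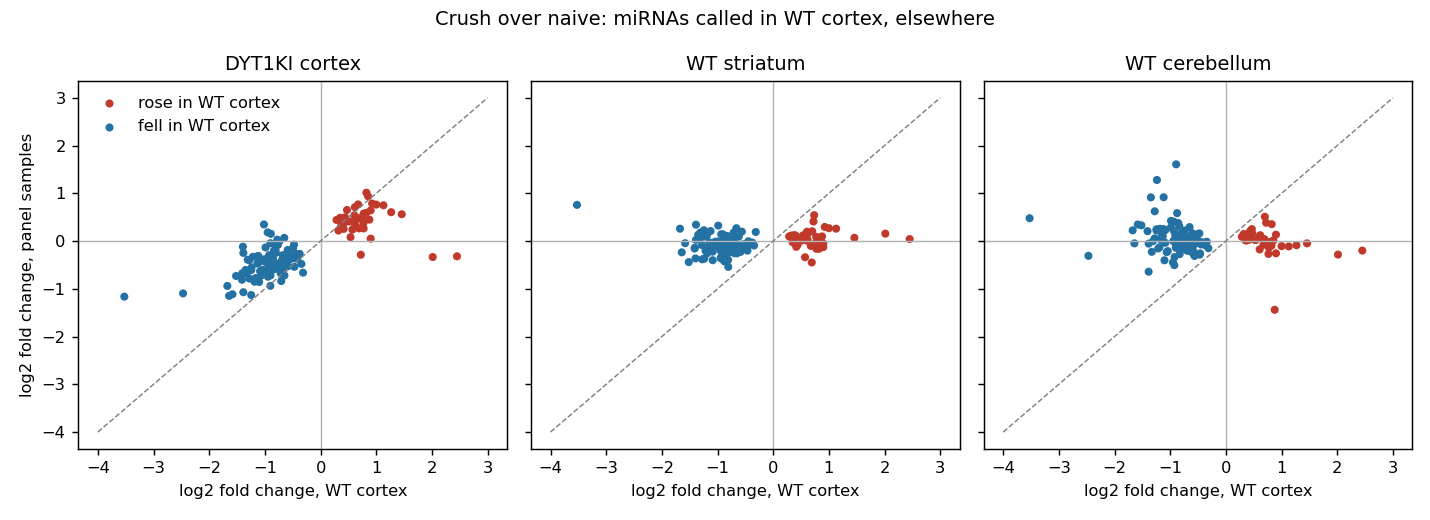
Log2 fold change (crush over naive) of the miRNAs called in WT cortex (x axis) against that in DYT1KI cortex, WT striatum and WT cerebellum (y axis of the 3 panels); the dashed line marks equal values. The points scatter near 0 on the y axis in striatum and cerebellum and lie between 0 and the dashed line for most miRNAs in DYT1KI cortex. The miRNAs were selected by their values on the x axis, which favours larger sizes there.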

How the data were processed

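RNA was isolated by miRNeasy (micro kit for cortex and striatum, mini kit for cerebellum) and QIAseq miRNA UDI libraries were prepared, per the labels' protocols. Software listed in the submitters' processing notes without a role is R 4.1.0 and featureCounts 1.6.4. For the aligner, build, miRNA annotation and any use of molecular identifiers: not given in the sources used here. Raw counts per mature miRNA and library were deposited by the authors, per the file headers, and only these counts were used; their fold changes and p-values were not. All per-library columns were mapped (0 left unmapped). The detection floor covers counting error only, while standard errors include the spread between libraries.

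The main test was edgeR 4.0.16 (R 4.3.3), robust quasi-likelihood, on the 12 WT cortex libraries, after filterByExpr (minimum count 10 and total 15), TMM scaling and Benjamini-Hochberg adjustment over all miRNAs tested; the threshold was an adjusted p of 0.05. CPM are TMM-scaled after the filter (marker sums: before it) and log2 CPM used a prior count of 2. The standard error is the log2 change divided by the root of F. Tissue differences used limma 3.58.1. DESeq2 1.42.0, voom, scalings, filters, the 4-group fit, blocks, subsets of the libraries and leaving out each library were alternatives. Scripts were tested on simulated data. No pair of the 66 looked like a library deposited again (lowest chi-square per degree of freedom 79.6).

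The comparison, its members, lists and tests were chosen with earlier results of these data known, including the 134 calls of the 12-library fit and the 0 calls of the 4-group fit. Named miRNAs are, by adjusted p, the leading 12 in each direction, up to 4 called members of each list (otherwise up to 2), and 8 always named; any other miRNA was named after its values were seen. miR-24-3p, always named, did not pass the filter. Lists share members. Sequences and coordinates are from RefSeq GRCm38.p6 and gene overlaps from GENCODE vM21; joint rows took the first matched sequence.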

Additional observations from a re-analysis of the deposited data

Results flagged for a closer look

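In the log2 CPM of the 6 libraries of a group, 4 named miRNAs had a library far from the others, past Dixon's 95% critical value. Chance passes that value in about 1 group in 20, and many groups were looked at. On this scale miR-1298-5p was not among the 4. miR-451a was at 6.76 CPM and miR-448-3p at 54.6 CPM in crush biol rep 2. miR-182-5p was at 29.8 CPM in crush biol rep 5. miR-124-3p was at 35012 CPM in naive biol rep 5.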

How the results depend on the processing

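Of the miRNAs tested, 27.9% (134) were called in the 12-library fit. That share was 0% (0) with the 4 cortex groups fitted together, 0% (0) within the libraries with 0 miR-24-3p, 18.5% (89) with the miR-24-3p term, 42.5% (204) with the biol rep range as a term, 9.73% (47) with biol rep 4 to 6 only, 17.1% (86) with animals numbered over 100 only and 25.8% (80 of 310) at a mean of at least 10 CPM. Inside 1.5 times the count were biol rep 1 to 3 only (162), a term for the range of animal numbers (187), DESeq2 (148), voom (140), no filter (100), upper-quartile scaling (76 higher, 83 lower) and DESeq2 size factors (45 higher, 93 lower). Leaving out a library gave 16.3% (79, without naive biol rep 2) to 32.2% (without naive biol rep 6). Animal numbers under 100 belong to WT crush biol rep 1 to 3 but only to WT naive biol rep 1, so that range is uneven between the groups. The biol rep numbers stand for different animals, so they do not pair the samples: same-numbered deviations correlated by -0.05 to 0.36, and 0 of 6 crush libraries correlated best with their own number. The fit with biol rep as a replicate block called 39.2% (188). The WT minus DYT1KI difference was 0 under every alternative run, the replicate block included. Cortex minus striatum called 20 with the animal as a fixed block and 0 to 3 without an animal (1 without the animal of crush biol rep 4, 3 without that of naive biol rep 6), and cortex minus cerebellum 0 to 2 (2 without that of naive biol rep 1, 1 without that of naive biol rep 2). The cause of these differences was not tested, except that fewer samples or miRNAs enter some fits.

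Signs turned for values close to 0 or carried by few libraries: with biol rep 4 to 6 only, miR-204-3p -0.045, miR-34c-5p -0.21, miR-1298-5p -0.064, miR-9-5p 0.057 and miR-124-3p -0.040; with animals over 100 only, miR-34c-5p -0.083, miR-9-5p 0.089 and miR-124-3p -0.11; with biol rep 1 to 3 only, miR-182-5p -0.068; with the miR-24-3p term, miR-181d-5p 0.015, and 0.080 in libraries with 0 miR-24-3p; with upper-quartile scaling, miR-21a-5p 0.0037 and miR-9-5p 0.062. Of these, miR-1298-5p alone was a call. For named miRNAs, fits that left out a library kept 679 results on their side of the threshold, while 87 lost and 2 gained a call.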
